A study of Mus musculus with 27 samples.

Results

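The comparison concerns H3K27me3, histone H3 trimethylated at lysine 27, around the transcription start sites (TSSs) of genes in induced pluripotent stem cells (iPSCs) against pre-iPSCs, the partially reprogrammed cells from which iPSCs are obtained. It uses 4 of the 27 samples of the series, 2 H3K27me3 libraries of pre-iPSCs and 2 of iPSCs. All cells descend from mouse embryonic fibroblasts (MEFs) from e13.5 embryos that were hemizygous for an Oct4-GFP transgenic allele and a Rosa26 allele. The background is labelled CBA/CaJ and C57BL/6J for the replicate 1 libraries, and the study's methods add a 129Sv/Jae mother. Pre-iPSCs and iPSCs were made by retroviral delivery of the 4 Yamanaka factors and grown for 6 passages before RNA-seq, and both were expanded on a MEF feeder layer in serum and LIF. The study used 2 stable pre-iPSC clones and the iPSCs derived from them, but the labels do not say which library came from which clone, so p-values measure the spread between these samples only. MEF libraries are given beside the others as the starting cells. Because MEF chromatin was digested under other conditions of micrococcal nuclease (MNase), cell type and digestion cannot be told apart where MEFs are compared.

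H3K27me3 is laid down by Polycomb repressive complex 2 and read by Polycomb repressive complex 1. In pluripotent cells it covers the promoters of developmental regulators, above all the Hox genes and other homeobox genes, many of which carry H3K4me3 at the same time. A gene that carries much of the mark is as a rule silent or weakly transcribed. Nucleosomes were released with MNase, immunoprecipitated and sequenced, so a read marks a single nucleosome.

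For each of 20156 genes the reads of all called nucleosomes whose centre lay within 2500 bp of the TSS were summed. The calls held 14276527 and 13224775 reads in pre-iPSCs and 13951675 and 13535035 in iPSCs (replicates 1 and 2, in that order throughout). Between 4.23% and 4.58% of them fell in TSS windows, and a tested window held a median of 24 to 29 reads, so most windows rest on few reads. The log2 counts of the 2 replicates correlated across windows with a Pearson r of 0.850 in pre-iPSCs and 0.820 in iPSCs. Of the markers of pluripotent cells, 10 of 14 were expressed higher in iPSCs than in pre-iPSCs (limma), against 3.91% of all genes tested. Pou5f1, Gdf3, Fbxo15 and Tdgf1 were not called. The 12 fibroblast markers summed to 476 and 533 FPKM in pre-iPSCs and 252 and 380 in iPSCs, against 5185 and 11291 in MEFs. Much of the pre-iPSC sums came from S100a4, with 149 FPKM in replicate 1 and 431 in replicate 2. It was the only marker of the 12 called, and fell to 7.42 and 87.2 FPKM in iPSCs. The other fibroblast markers were called in neither direction, so the sums do not show a fall of the set.

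Of 18914 windows tested with edgeR (quasi-likelihood, adjusted p below 0.05), 214 held more H3K27me3 in iPSCs, which is 1.13% of those tested, and 63 held less, 0.333%, together 1.46%. In windows that rose, the median went from 19.5 and 15 reads in pre-iPSCs to 51 and 45 in iPSCs. In windows that fell, it went from 57 and 55 reads to 24 and 30. Genes that gained the mark relative to pre-iPSCs included the transcription factors Tcfap2a, Meis2 and Nfix and the BMP target Id1. Members of the Hoxa, Hoxb and Hoxc clusters gained it too. Genes that lost it included the pluripotency genes Utf1, Lin28a and Sox2. The median log2 change was 1.33 over windows that rose (0.86 to 2.66), -1.10 over those that fell and -0.003 over all tested. The iPSC libraries lay above both pre-iPSC libraries in all 214 windows and below both in all 63. Without any call, 20.6% of tested windows had their groups apart upwards and 19.8% downwards, so separation of 4 libraries alone carries little.

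The number of calls depended on the tool, the window, the minimum of reads, the scaling to H3 and the libraries. DESeq2 called 2 windows higher and 1 lower, with 521 at an unadjusted p below 0.05, and edgeR without pre-iPSC replicate 2 called 61 and 18. All 277 windows kept their direction in both, which carries little, because the groups lay apart in each of them from the start. With all 4 libraries edgeR called 1 higher and 0 lower within 500 bp (288 of 3184 at an unadjusted p below 0.05), 76 and 15 within 1000 bp, 76 and 17 with nucleosome calls of at least 2 reads, and none relative to H3 (149 at an unadjusted p below 0.05). Without iPSC replicate 1, 23 were lower, and without iPSC replicate 2, 106.

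Promoter sequence is shown for 4 of the windows with the largest changes, a pair that rose and a pair that fell. Each is the 250 bases upstream of the TSS in mm9, read 5′ to 3′ on the gene's strand, with CpG dinucleotides in capitals. The first pair rose (Tcfap2a, chr13:40825813-40826062, minus strand, and Meis2, chr2:115890358-115890607, minus strand).
Tcfap2a: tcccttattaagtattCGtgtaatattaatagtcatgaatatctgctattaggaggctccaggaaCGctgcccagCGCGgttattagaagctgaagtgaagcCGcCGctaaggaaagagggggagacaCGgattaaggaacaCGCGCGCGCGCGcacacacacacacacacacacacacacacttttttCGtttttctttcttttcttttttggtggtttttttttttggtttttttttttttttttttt
Meis2: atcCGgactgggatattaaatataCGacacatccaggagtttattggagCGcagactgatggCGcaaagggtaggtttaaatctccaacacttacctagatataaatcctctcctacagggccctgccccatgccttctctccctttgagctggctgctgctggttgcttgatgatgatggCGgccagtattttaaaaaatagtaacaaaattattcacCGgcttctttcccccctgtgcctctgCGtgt
The other pair are pluripotency genes that fell (Utf1, chr7:147129505-147129754, plus strand, and Lin28a, chr4:133574732-133574981, minus strand).
Utf1: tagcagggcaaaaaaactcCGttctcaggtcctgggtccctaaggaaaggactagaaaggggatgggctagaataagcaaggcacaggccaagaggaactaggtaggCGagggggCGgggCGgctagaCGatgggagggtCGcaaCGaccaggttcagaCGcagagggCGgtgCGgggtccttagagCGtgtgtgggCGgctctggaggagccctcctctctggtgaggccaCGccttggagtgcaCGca
Lin28a: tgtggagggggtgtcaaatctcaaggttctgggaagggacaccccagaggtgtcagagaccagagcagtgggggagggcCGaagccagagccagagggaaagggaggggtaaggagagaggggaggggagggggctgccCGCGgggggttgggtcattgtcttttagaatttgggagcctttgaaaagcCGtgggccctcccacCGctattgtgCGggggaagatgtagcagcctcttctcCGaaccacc
The 250 bases held 14 CpGs at Tcfap2a, 7 at Meis2, 14 at Utf1 and 7 at Lin28a, against a median of 11 over all 20156 promoters. Promoters with at least 14 CpGs made up 42.6% of all, and those with at least 7 made up 62.1%, so none of the 4 was extreme. A region of at least 55% GC with a CpG ratio of at least 0.75 lay within 500 bp of the TSS at 60.3% of the windows that rose and 54.0% of those that fell, beside 51.0% of all windows tested.

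Tcfap2a, which encodes the transcription factor AP-2 alpha of neural crest and surface ectoderm, showed the largest rise. Its window held 7 and 8 reads in pre-iPSCs and 60 and 42 in iPSCs, a log2 change of 2.66 ± 0.36 (SE, edgeR adjusted p = 2.0e-05). MEFs held 53 and 68 reads, so this gene was marked in the starting cells, nearly bare in pre-iPSCs and marked again in iPSCs. Its expression followed the opposite course, falling from 19.5 and 11.6 FPKM in pre-iPSCs to 0.516 and 0.523 in iPSCs, after 1.07 and 0.833 in MEFs. Itgb4, the beta 4 integrin of epithelial hemidesmosomes, had the same shape. It held 16 and 8 reads in pre-iPSCs and 63 and 46 in iPSCs, next to 70 and 76 in MEFs, and its expression fell from 31.7 and 54.4 FPKM to 1.47 and 1.26.

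Meis2, a homeobox partner of Hox proteins, rose from 4 and 6 reads to 33 and 35 (log2 change 2.65). MEFs held 5 and 13 reads there, so this window was poor in the mark in MEFs too. The iPSC reads at Meis2 were near the median of all tested windows in iPSCs, 29 and 27 reads. Those at Tob2, up from 8 and 3 reads to 26 and 22, lay below that median in both libraries. Zbtb7b, a zinc finger transcription factor, rose from 7 and 5 reads to 42 and 37. Nfix, a nuclear factor I gene, went from 22 and 10 reads to 98 and 64, the highest iPSC values among the 12 largest rises. Its replicates were further apart than those of Meis2. Its groups did not overlap, which the choice of the 12 required. Efna5, a ligand of Eph receptors, rose from 10 and 6 reads to 44 and 37, and Id1, an inhibitor of basic helix-loop-helix factors, from 11 and 9 to 48 and 44. Id1 expression fell from 257 and 213 FPKM in pre-iPSCs to 24.2 and 32.3 in iPSCs. The remaining windows among the 12 were those of Tob2, Adk and Hoxb2 and those of 2 pairs of neighbouring genes, whose windows share reads and cannot be told apart. These were Tshz1 with Zadh2, and Leprel4 with Fkbp10, which act on collagen. Leprel4 rose from 13 and 6 reads to 50 and 32 while its expression fell from 45.2 and 71.7 FPKM to 4.80 and 6.77.

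**Figure D1:**
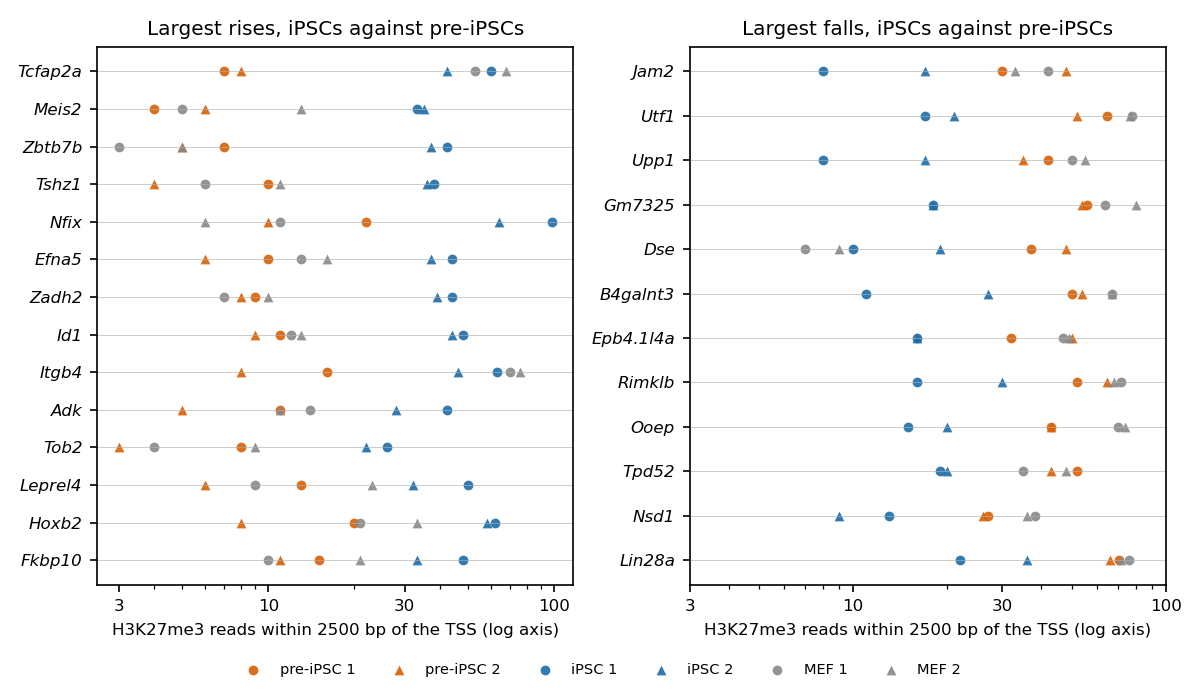
H3K27me3 reads within 2500 bp of the TSS on a log axis, for the windows with the largest rises (left) and falls (right), each point a library of pre-iPSCs (orange), iPSCs (blue) or MEFs (grey), circles replicate 1 and triangles replicate 2. In every row the 2 iPSC libraries lie apart from the 2 pre-iPSC libraries, as the choice of these windows required. The MEF libraries lie with iPSCs at Tcfap2a and Itgb4 but with pre-iPSCs at most other rises.

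Levels in MEFs were set beside these on the scale of RPM (reads of a window scaled to the library's reads in calls, as CPM is). The windows were chosen for low or high pre-iPSC values, so the counts are a description. Of the 214 windows that rose, both MEF libraries were above both pre-iPSC libraries at 99 (46.3%, against 21.0% of all tested windows) and below both at 39 (18.2%, against 34.9%). Both were below both iPSC libraries at 165 (77.1%, against 39.3%). The median level over the 214 was 1.37 and 1.13 RPM in pre-iPSCs, 3.66 and 3.32 in iPSCs and, for MEFs, 1.57 and 1.74. Of the 63 that fell, both MEF libraries were above both iPSC libraries at 53 (84.1%, against 18.5%). They were above both pre-iPSC libraries at 20 (31.7%) and below both at 19 (30.2%). Over the 63 the medians were 3.99 and 4.16 RPM in pre-iPSCs, 1.72 and 2.22 in iPSCs and 3.82 and 4.40 in MEFs.

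Jam2, a junctional adhesion molecule, had the largest fall, from 30 and 48 reads to 8 and 17 (log2 change -1.72 ± 0.35). Utf1, a chromatin protein of pluripotent cells, fell from 65 and 52 reads to 17 and 21 (-1.70 ± 0.28, edgeR adjusted p = 0.00040), after 78 and 77 in MEFs. Its expression rose from 23.2 and 1.67 FPKM to 544 and 220. Upp1, a uridine phosphorylase, fell from 42 and 35 reads to 8 and 17 as its expression rose from 3.12 and 24.7 FPKM to 216 and 273. Gm7325 fell from 56 and 54 reads to 18 in both iPSC libraries, and its expression rose from 0 and 0.102 FPKM to 79.3 and 28.9. Ooep, a protein of the oocyte and early embryo, fell from 43 in both pre-iPSC libraries to 15 and 20 reads, and Lin28a, an RNA-binding protein that blocks let-7 maturation, from 71 and 66 to 22 and 36. Of the other members of the 12, B4galnt3, Rimklb and Tpd52 lost the mark and rose in expression. The log2 change of B4galnt3 was -1.53, and -0.97 and not called without iPSC replicate 1. Dse, Epb4.1l4a and Nsd1 lost the mark and were not called for expression. The call of Nsd1 was at the edge, with an edgeR adjusted p of 0.0498.

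The change was not limited to the counted window. At 5 to 10 kb upstream of TSSs whose windows rose, outside the counted window, pre-iPSCs held 0.457 and 0.441 RPM per kb and iPSCs 0.660 and 0.602. Downstream at the same distance the values were 0.424 and 0.359 against 0.693 and 0.618. For TSSs whose windows fell, Pou5f1 left out, the upstream values were 0.612 and 0.650 in pre-iPSCs against 0.456 and 0.502 in iPSCs. Neighbouring genes can add to these values, since 61 of the 214 had another risen TSS within 50000 bp, but 4 of the 63 had a fallen one.

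**Figure D2:**
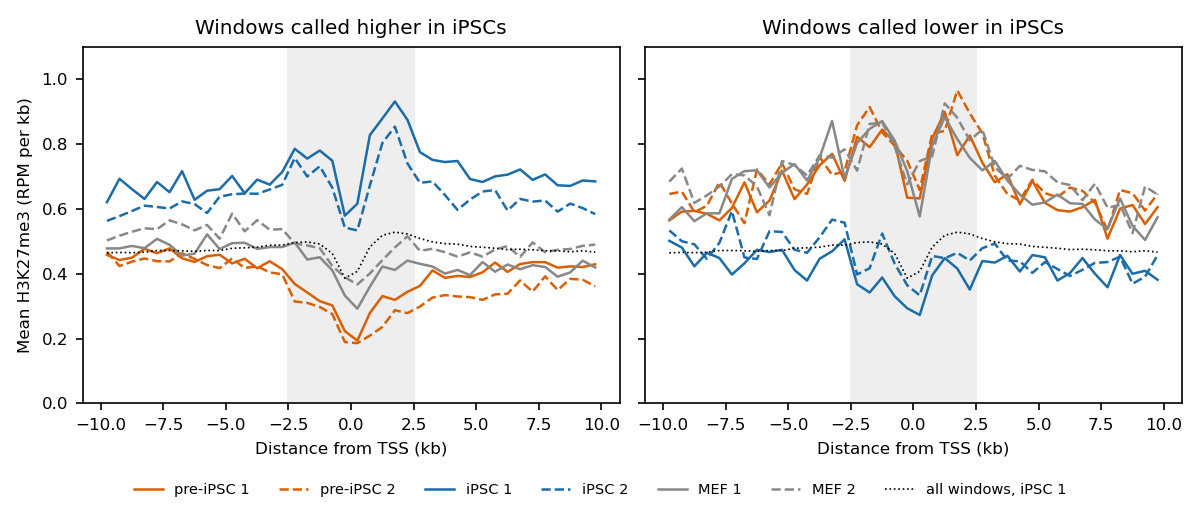
Mean H3K27me3 in RPM per kb, in bins of 500 bp, by distance from the TSS in kb, for the 214 windows that rose (left) and 62 that fell (right, without Pou5f1), a line per library and a dotted line for all tested windows in iPSC replicate 1. Grey marks the counted window, and iPSC lines stay above (left) or mostly below (right) the pre-iPSC lines out to 10 kb.

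The Hox clusters, which encode the transcription factors of anterior to posterior identity and are the textbook Polycomb targets, had the highest share of risen windows among the lists examined. Of 39 Hox windows, 11 rose (28.2%, against 1.13% of all tested) and none fell. The median log2 change was 0.53 and 37 of 39 were above 0. In the Hoxa cluster 6 of 11 rose, Hoxa2, Hoxa3, Hoxa6, Hoxa7, Hoxa9 and Hoxa10, and the cluster's windows summed to 332 and 348 reads in pre-iPSCs, 685 and 694 in iPSCs and 533 and 516 in MEFs. In Hoxb, Hoxb2, Hoxb3 and Hoxb4 rose of 10, and in Hoxc, Hoxc5 and Hoxc6 of 9. None of the 9 Hoxd windows was called, where the sums were 504 and 361 in pre-iPSCs against 581 and 576 in iPSCs. Neighbouring TSSs in a cluster share reads, so these windows are not independent.

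Hoxb2 went from 20 and 8 reads to 62 and 58 (log2 change 2.01 ± 0.31), and Hoxa6 from 17 and 20 to 63 in both iPSC libraries (1.68 ± 0.28). Genes at the ends of the clusters differed less. Hoxa13 had 68 and 50 reads in pre-iPSCs and 65 and 69 in iPSCs, and Hoxb13 had 44 and 63 against 65 and 78, and neither was called. Of 30 Hox genes tested for expression, 2 fell, near the 4.71% of all genes tested, one of them Hoxa7 with 14.7 and 7.92 FPKM in pre-iPSCs and 0.988 and 1.07 in iPSCs, and none rose.

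**Figure D3:**
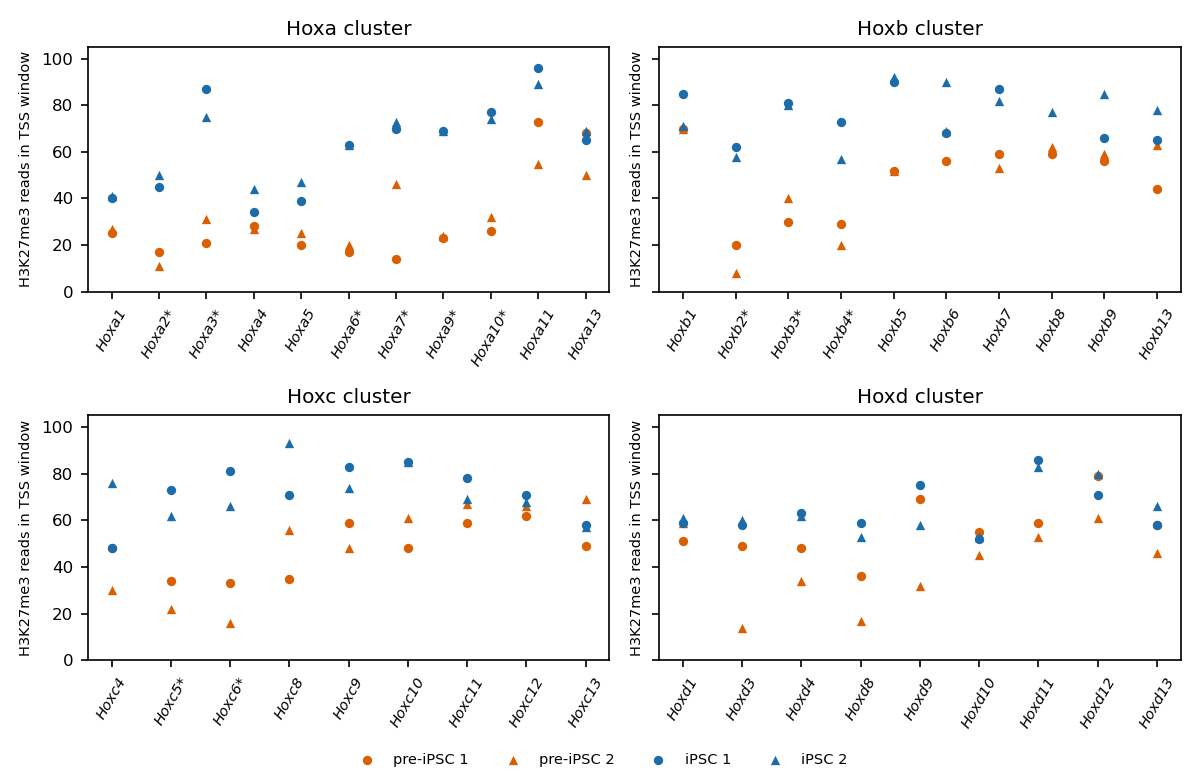
H3K27me3 reads in the window of each gene of the 4 Hox clusters, in order of gene number, for the pre-iPSC (orange) and iPSC (blue) libraries, circles replicate 1 and triangles replicate 2, with an asterisk at the 11 genes that rose. The gap between the cell types is wide at Hoxa2, Hoxa3, Hoxa9 and Hoxa10 and at Hoxb2 to Hoxb4, and narrow or absent at the last genes of each cluster.

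Of 114 homeobox genes outside the clusters, 9 rose (7.89%, against 1.13% of all tested) and none fell, with a median log2 change of 0.04, which was -0.02 with a GC correction. They were Meis2, Irx2, Emx2, Vax2, Irx5, Dlx2, Msx1, Tlx3 and Dlx1, regulators of nervous system, limb and eye development. Irx2 rose from 19 and 8 reads to 45 and 47, and its expression fell from 11.8 in both pre-iPSC libraries to 1.95 FPKM in both iPSC libraries. Vax2 rose from 28 and 35 reads to 99 and 73, with expression falling from 30.3 and 35.5 FPKM to 0.763 and 0.0788. Tbx15, of the T-box family, rose from 18 and 17 reads to 53 and 49, and was the only member of 16 called (6.25%).

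The clustered protocadherins are neuronal adhesion proteins with tandem promoters. Of their 58 windows 7 rose (12.1%, against 1.13% of all tested) and none fell. All 58 had a log2 change above 0, against 9403 of the 18914 windows tested, with a median of 0.64. Pcdha5 went from 20 and 14 reads to 47 and 38 and Pcdhgc4 from 22 and 18 to 49 and 50. The 2 MEF libraries held 18 and 22 reads at Pcdha5, near the pre-iPSC level. Their tandem windows overlap or adjoin, and 1 gene of the 20 tested for expression was called, higher in iPSCs.

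Other lists gave few calls, to be read against the 1.13% of all windows that rose and the 0.333% that fell. Efna5 and Efna3 rose among 21 Eph receptors and ephrins (9.52%), Krt19 and Krt13 among 50 keratins (4.00%), and Cdkn1a, the cell cycle inhibitor p21, among 6 tested inhibitors (16.7%). Krt19 rose from 25 and 33 reads to 55 and 67 while its expression fell from 95.6 and 231 FPKM to 2.81 and 2.99. S100a4, a calcium-binding protein of motile and mesenchymal cells, rose from 19 and 10 reads to 59 and 52. Its expression fell from 149 and 431 FPKM to 7.42 and 87.2, and it was the only fibroblast gene of 12 called (8.33%). Phf19, a Polycomb-like protein that binds Polycomb repressive complex 2, rose from 28 and 30 reads to 58 and 69, and its expression was not called. Olfr543 rose among 1022 olfactory receptor genes (0.0978%). Among 304 zinc finger genes 3 rose (0.987%), Zfp319 and Zfp651 the most, and Zfp423 fell (0.329%), shares near those of all windows tested. Zfp319 had a log2 change of 1.76, and of 1.13 and no call without iPSC replicate 1. Gli2, an effector of Hedgehog signalling, fell from 38 and 68 reads to 27 and 21 (log2 change -1.23, but -0.68 and not called without pre-iPSC replicate 2), and was the only one called of 13 in that list (7.69%).

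No window was called by edgeR among the 9 Pax, 43 Forkhead, 6 Gata, 23 neural basic helix-loop-helix, 19 Wnt, 23 Frizzled and Wnt inhibitor, 22 Fgf, 32 TGF-beta family and 43 collagen genes tested. The same held for 14 BMP, activin and Nodal antagonists, 40 potassium channels, 58 neurotransmitter-gated channels, 9 mesenchymal transition factors, 18 epithelial junction genes, 39 imprinted genes, 8 Rhox genes and 75 ribosomal protein genes. At this depth the test recovered 45 of 98 changes of 2-fold planted in simulated windows and 98 of 100 of 4-fold, so smaller changes in these lists can have been missed. Of 27 germline genes tested for expression 25 rose in iPSCs, against 3.91% of all genes tested, and none of 43 germline windows was called for H3K27me3 with a median log2 change of 0.05. Ddx4, a germ cell helicase, held 29 and 26 reads in pre-iPSCs and 32 and 40 in iPSCs, while its expression rose from 0.0585 and 0 FPKM to 6.13 and 4.64.

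**Figure D4:**
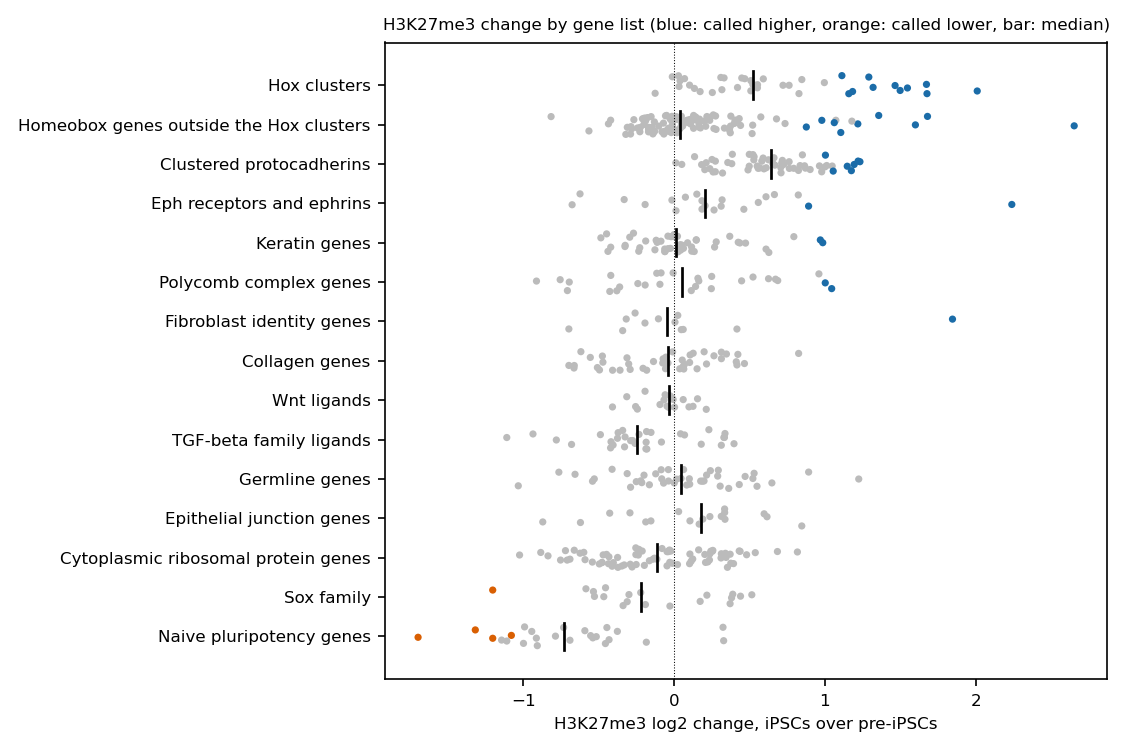
H3K27me3 log2 change, iPSCs over pre-iPSCs, of each tested member of 15 gene lists, with members that rose in blue, members that fell in orange, uncalled members in grey and a bar at the list's median. The Hox and protocadherin medians lie at 0.53 and 0.64, the naive pluripotency median at -0.73, and the other medians nearer to 0.

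In the list named naive pluripotency, which also holds pluripotency genes not particular to the naive state, 25 genes were tested. Of these, 4 fell (16.0%, against 0.333% of all tested), none rose and 23 had a log2 change below 0. The median of the list was -0.73. The 4 were Utf1, Lin28a, Sox2 and Pou5f1, the last of which is read separately below. Sox2 fell from 52 and 50 reads to 33 and 14 (log2 change -1.20 ± 0.29), and the change was -0.77 without iPSC replicate 2, when it was not called (edgeR adjusted p = 0.23), and -1.88 without iPSC replicate 1. Its expression was 272 and 171 FPKM in pre-iPSCs and 65.7 and 116 in iPSCs, but in cells made with retroviral Sox2 the deposited FPKM may include transgene transcripts. The same holds for Pou5f1, Klf4 and Myc. Nanog held 31 and 24 reads in pre-iPSCs and 21 and 14 in iPSCs and was not called (log2 change -0.73 ± 0.33, edgeR adjusted p = 0.37), although its expression rose from 0.519 and 0 FPKM to 49.5 and 73.6. Tcfcp2l1, with 40 and 56 reads against 21 and 33, and Dppa3, with 36 and 33 against 21 and 30, were not called. Zfp42 held 19 reads in both pre-iPSC libraries and 16 and 15 in iPSCs, and its expression rose from 0 and 0.0837 FPKM to 56.0 and 63.9. Klf4 (41 and 68 reads against 35 and 50) and Myc (38 and 47 against 31 and 45) had overlapping groups.

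Pou5f1, which encodes OCT4, needs separate reading. It held 313 and 297 H3K27me3 reads in pre-iPSCs and 152 and 154 in iPSCs (log2 change -1.08 ± 0.15, edgeR adjusted p = 2.9e-05), where the median tested window held 26 and 24 in pre-iPSCs. The H3 libraries held 8414 and 1972 reads there in pre-iPSCs and 2765 and 1505 in iPSCs, and the single H3K9me3 library held 754 in pre-iPSCs and 234 in iPSCs. The 2500 bp downstream of the TSS held 12.4 and 11.7 times the mean of all windows for H3K27me3 in pre-iPSCs and 21.2 and 19.9 times for H3. In iPSCs the same part held 5.94 and 7.27 times the mean for H3K27me3 and 11.2 and 13.2 times for H3. For H3K4me3 this part held 13.2 to 17.1 times the mean in the 4 libraries. In MEFs, which had not received the retroviral factors, the window held 384 and 82 H3K27me3 reads, and the downstream part held 17.6 and 2.61 times the mean. MEFs, pre-iPSCs and iPSCs carry the transgenic Oct4-GFP allele, and pre-iPSCs and iPSCs also the retroviral factors. Their part in the reads of this window was not tested.

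The other genes that the study describes with values of their own were not called for H3K27me3. Tgfb1 held 50 and 49 reads against 54 and 69, Inhba 38 and 51 against 51 and 68, Col1a1 51 and 60 against 65 and 58, and Vcam1 34 and 25 against 34 and 36. In MEFs these 4 held 5 to 17 reads. Trap1a, on chromosome X, held 17 reads in both pre-iPSC libraries and 5 and 8 in iPSCs (log2 change -1.45 ± 0.48, edgeR adjusted p = 0.14).

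Expression was measured in other libraries of the same cell types and did not enter the choice of windows. Of 12401 genes tested with limma, 485 were higher in iPSCs (3.91%) and 584 lower (4.71%). Of the 196 tested genes with risen H3K27me3, 117 were expressed lower in iPSCs (59.7%) and 1 higher, with a median change of -2.03 in log2(FPKM + 1). Of the 51 with fallen H3K27me3, 29 were expressed higher (56.9%) and none lower, with a median of 2.18. Without the H3K27me3 library of iPSC replicate 1 that share was 27.8%, and it was 55.7% to 73.3% without one of the other libraries. The share of risen genes expressed lower was 40.7% to 69.6% when an H3K27me3 library was left out. Read from expression, 117 of 570 windows of genes that fell carried risen H3K27me3 (20.5%), and 29 of 447 windows of genes that rose carried fallen H3K27me3 (6.49%). A log2 change of H3K27me3 above 0 was found at 85.6% of the former and 19.2% of the latter, against 53.7% of the genes not called for expression. Most genes that changed in expression had no called change of the mark.

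The gene that moved the same way in both measurements was E2f4, a cell cycle repressor of the E2F family, with 13 and 11 H3K27me3 reads in pre-iPSCs and 38 and 34 in iPSCs and expression rising from 32.8 and 28.0 FPKM to 139 and 61.8. Calls of expression rested on all 4 libraries of the 2 cell types, and the MEF libraries shared in the estimate of the spread. Without iPSC replicate 1 limma called 69 genes higher and 22 lower, and without iPSC replicate 2 it called 29 and 7.

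**Figure D5:**
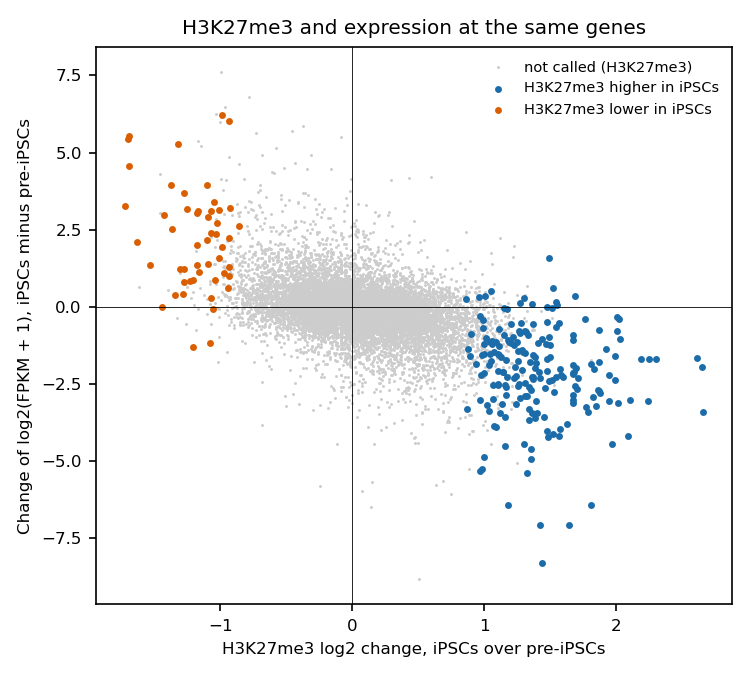
Change of log2(FPKM + 1) against the log2 change of H3K27me3, both iPSCs relative to pre-iPSCs, a point per gene tested in both, with risen H3K27me3 in blue and fallen in orange. Blue points lie mostly below 0 on the expression axis (median -2.03) and orange points mostly above (median 2.18).

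The 6 expression clusters that the study built from the same RNA libraries are no independent evidence of a relation to expression. Their shares stand beside 1.13% of all windows risen and 0.333% fallen. In cluster C4, where 44 of 74 genes fell in expression, 9 of 72 windows rose (12.5%) and none fell. Nccrp1 went from 14 and 15 reads to 50 and 58 while expression fell from 121 and 114 FPKM to 0.595 and 0.184, and Shisa3 from 19 and 14 to 66 and 43. Both were at 60 reads or more in MEFs. In C1, where 11 of 53 genes fell in expression, 5 of 53 windows rose (9.43%), among them S100a6 (10 and 7 reads to 35 in both iPSC libraries) and Capn2 (16 and 7 to 43 and 46), at 5 to 7 reads in MEFs. In C6, where 55 of 64 genes rose in expression, 5 of 58 windows fell (8.62%) and none rose. In C3 3 of 25 fell (12.0%), Pou5f1 among them. In C5 3 of 109 fell (2.75%), among them Nphs1 and Rimklb, and Cilp2 rose (log2 change 0.93, but 0.39 without iPSC replicate 1). In C2, where 11 of 42 genes fell in expression, 9130017N09Rik was the only one of 57 called, and it rose (1.75%, near the share of all windows).

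H3K4me3, a mark of active and poised promoters, was counted in the same windows. No window of 19165 was called by edgeR (0%), with 2116 at an unadjusted p below 0.05, and DESeq2 called none either, with 392. Without pre-iPSC replicate 1 edgeR called 191 windows, without pre-iPSC replicate 2 it called 2, without iPSC replicate 1 it called 0 (1275 at an unadjusted p below 0.05) and without iPSC replicate 2 it called 469. At windows with risen H3K27me3 the median log2 change of H3K4me3 was -0.10, with 77 of 214 above 0 (36.0%), and at fallen ones it was 0.20, with 51 of 63 above 0 (81.0%), against 49.7% of the other windows. H3K4me3 was thus present on both sides, at a median of 6.77 and 6.47 RPM in pre-iPSCs and 5.69 and 6.17 in iPSCs where H3K27me3 rose. Tbx15 had 109 and 101 H3K4me3 reads in pre-iPSCs and 51 and 53 in iPSCs, with an adjusted p of 0.13.

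Histone H3 itself was counted in the same windows, and the replicates differed. There edgeR gave an unadjusted p below 0.05 at 4 of the 214 risen windows (1.87%), 0 of the 63 fallen windows and 12 of the 18637 others (0.0644%). That is fewer than a threshold of 0.05 admits without any change, so this fit could hardly detect one. At risen windows H3 went from 4.33 to 4.00 RPM in replicate 1 and from 1.41 to 2.00 in replicate 2. At fallen windows it went from 5.50 to 3.10 in replicate 1 and from 1.97 to 2.00 in replicate 2. Over all tested windows the values were 2.85 to 2.61 and 1.81 to 2.00. The median log2 ratio of H3 at risen windows was -0.13 in replicate 1, against -0.14 over all, and 0.50 in replicate 2, against 0.13. At fallen windows it was -0.77 and 0.03. Every one of the 277 kept its direction in a fit of H3K27me3 relative to H3. This carries little, as do the medians given below for replicate 2, because both fits used the H3K27me3 libraries that chose the windows. In that fit edgeR called no window, with 149 of 18914 at an unadjusted p below 0.05, again fewer than that threshold admits. With H3 of replicate 2 alone it again called none, with 1006 of 18914 at an unadjusted p below 0.05, and the medians were 0.97 at risen and -1.01 at fallen windows. H3K9me3, with 1 library per cell type and hence no test, went from 1.55 to 2.45 RPM at risen windows, from 2.40 to 1.96 at fallen ones and from 1.85 to 1.96 over all. The part of nucleosome occupancy and of antibody background in the H3K27me3 changes was not tested beyond these values.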

How the data were processed

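Chromatin of pre-iPSCs and iPSCs was digested with MNase and immunoprecipitated for H3K27me3. Bowtie 1.0.1 was the aligner (mm9). The authors kept unique reads, moved them by 73 bp and called nucleosomes with GeneTrack, and the deposited value is the count of reads of each called nucleosome. Reads outside the calls were not used here. For RNA-seq the authors used TopHat2 2.0.4 and Cufflinks 2.0.2, and the deposited tables hold FPKM for replicates 1 and 2, normalized separately.

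TSSs were taken from the deposited gene coordinates, which count from 0. Counts within 2500 bp entered the quasi-likelihood test of edgeR 4.0.16, with TMM factors and filterByExpr, adjusted by Benjamini-Hochberg over all windows. Expression as log2(FPKM + 1) entered limma-trend (limma 3.58.1) where the mean FPKM reached 0.5, and the table was a term in the fit. Genes were called at an adjusted p of 0.05 and at least 2-fold. Alternatives used DESeq2 1.42.0 and other windows, filters, scalings and libraries. The smallest p of an exact permutation test of these 4 libraries would be 0.333.

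Named genes include the 12 largest rises and the 12 largest falls with groups apart, TSSs within 2500 bp merged. For these the cell type with more of the mark had to hold a mean of at least 20 reads, with no minimum in the other. Also named are the 2 largest rises and falls of each list and genes the study names. The rest are the 8 largest changes on each side that oppose expression and the 4 that match it. Other called list members were named after their values were seen. The members, lists and rules were chosen with earlier results of these data known. R 4.3.3 and Python 3.11.15 were used, and tests were checked on simulated data. Some called genes and promoter sequences are not reported here.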

Additional observations from a re-analysis of the deposited data

How the results depend on the processing

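Where they could be tested, the called windows kept their direction in the alternatives run, except 1 of 18 fallen windows at 500 bp. In fits to the same H3K27me3 libraries the direction was largely set by the choice of windows, in which the groups lay apart. Of the 214 and 63, 169 and 57 could be tested at 1000 bp and 35 and 18 at 500 bp, and without chromosomes X and Y 213 and 63. Windows called higher and lower numbered 76 and 15 at 1000 bp, 1 and 0 at 500 bp, 76 and 17 with calls of at least 2 reads, 2 and 1 with DESeq2, and 0 and 0 relative to H3, with both replicates or with replicate 2 alone (added after seeing the data). Fewer windows or reads were tested under the windows of 1000 and 500 bp and under the minimum of 2 reads. The other causes were not tested. Scaling to reads in calls or to unique reads left 37 lower and shifted all windows by 0.08 on the log2 scale. Leaving out a library gave 61 to 304 higher and 18 to 106 lower. The share of fallen genes with expression called higher ranged from 27.8% to 73.3% when a library was left out, with the lowest share without iPSC replicate 1. List members called fell from 56 to 20 higher and from 18 to 4 lower at 1000 bp. Expression calls ranged from 29 to 361 higher and 7 to 380 lower when a library was left out, and numbered 367 lower with no filter on low values.

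Whether libraries of the same replicate number belong together is not known, since the labels tie no library to a clone. The deviations of same-numbered libraries correlated at 0.20. With the replicate block 481 windows were higher and 165 lower, including all 277, and 474 H3K4me3 windows were called. H3K4me3 calls ranged from 0 to 469 when a library was left out. Of the uncalled study genes, some small log2 changes changed sign: when a library was left out Klf4 ranged from -0.83 to 0.039, Tgfb1 from -0.015 to 0.45, Col1a1 from -0.12 to 0.25 and Myc from -0.60 to 0.053, Col1a1 was -0.015 at 500 bp, Myc 0.14 at 5000 bp and Vcam1 -0.17 at 1000 bp. Relative to H3, Zfp42 had 0.084, Myc 0.071 and Dppa3 0.65, and relative to H3 of replicate 2 Tgfb1 had -0.18, Zfp42 0.17, Col1a1 -0.14 and Dppa3 0.45. The median of homeobox genes outside the Hox clusters was -0.02 with the GC correction. Depth limits changes of 2-fold, of which 45 of 98 were recovered in simulated windows.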
